A study of Mus musculus with 17 samples.

Results

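The peaks described here are the regions of mouse epidermis in which H3K27ac, acetylation of lysine 27 of histone H3, was called by chromatin immunoprecipitation and sequencing (ChIP-seq) in Utx-deleted and control mice. They are the members of the deposited H3K27ac list of each genotype, and together they make up 2188 of the 2948 peaks of the 4 lists of the series. The Utx-deleted list held 48 peaks and the control list 2140. Utx-deleted mice carried floxed Utx alleles (Utx fl/fl) and Cre, and control mice carried the same floxed alleles without Cre. The Cre is driven by Krt14, so that it acts in basal keratinocytes and the cells that descend from them, while other cells of the epidermal suspension keep Utx. All mice were female, and their strain and age are not given in the sources used here. The sample labels give 3 Utx-deleted and 2 control H3K27ac libraries, although their protocol speaks of 3 samples in each group. The authors called peaks on the merged libraries of a group, so that a peak has no replicate values and no difference between the genotypes could be tested against the spread between mice. Read depth, peak height and fold enrichment are not in the lists, and the number of peaks in a list therefore carries no error.

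H3K27ac is placed by the acetyltransferases p300 and CBP on nucleosomes that flank active promoters and enhancers. Nucleosomes are often missing at an active start site itself, which leaves the mark on either side of it. UTX, the product of Kdm6a, removes methyl groups from the same lysine and belongs to the COMPASS-like complexes of MLL3 and MLL4, which act at enhancers. In epidermis, enhancers with H3K27ac are found at genes of keratinocyte adhesion and differentiation.

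The promoters of 5 genes show the kinds of start site that the lists contain, each as the 250 bases before the start site from RefSeq on GRCm38. Capitals mark matches, on either strand, to 5 short motifs. These are the AP-1 site with the letters TGANTCA, the cyclic AMP response element with TGACGTCA, the GC box with GGGCGG, the CCAAT box read by those letters, and the TATA box read as TATAAA. Gm32584, a predicted gene on chromosome 5, had the only Utx-deleted peak centred within 1 kb of a start site used here. That peak lay 383 to 779 bp after the start. Its promoter is chr5:36661659-36661908, minus strand, with 0 CpG and 3 CCAAT matches:
Gm32584: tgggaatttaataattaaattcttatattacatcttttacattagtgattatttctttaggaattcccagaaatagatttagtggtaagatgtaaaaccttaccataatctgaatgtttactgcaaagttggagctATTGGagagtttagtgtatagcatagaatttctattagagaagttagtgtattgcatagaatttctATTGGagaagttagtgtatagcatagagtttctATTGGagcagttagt
Skint1, an immunoglobulin superfamily gene that selects the gamma delta T cells of the epidermis, had a control peak from 87 bp before to 824 bp after its start, so that the peak covered the last 87 of these bases. Its promoter is chr4:112006019-112006268, plus strand, also with 0 CpG and with 1 TATA match:
Skint1: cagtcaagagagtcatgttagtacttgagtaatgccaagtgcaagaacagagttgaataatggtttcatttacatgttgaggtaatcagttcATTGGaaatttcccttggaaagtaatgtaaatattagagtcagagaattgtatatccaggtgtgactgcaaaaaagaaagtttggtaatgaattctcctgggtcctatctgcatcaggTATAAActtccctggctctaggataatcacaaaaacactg
Ndel1, a dynein regulator, had a control peak from 1008 to 169 bp before its start, which covered the first 82 bases. Its promoter is chr11:68853136-68853385, minus strand, with 20 CpG and 3 GC boxes:
Ndel1: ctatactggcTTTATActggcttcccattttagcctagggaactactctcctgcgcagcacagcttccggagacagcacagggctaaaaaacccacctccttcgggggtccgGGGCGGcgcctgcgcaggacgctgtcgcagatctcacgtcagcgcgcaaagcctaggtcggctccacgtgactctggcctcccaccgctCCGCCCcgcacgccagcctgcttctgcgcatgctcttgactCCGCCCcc
Actg1, which encodes cytoplasmic gamma actin, had a control peak from 1383 to 417 bp before its start and none in the bases shown. This promoter is chr11:120348496-120348745, minus strand, with 43 CpG and 6 GC boxes:
Actg1: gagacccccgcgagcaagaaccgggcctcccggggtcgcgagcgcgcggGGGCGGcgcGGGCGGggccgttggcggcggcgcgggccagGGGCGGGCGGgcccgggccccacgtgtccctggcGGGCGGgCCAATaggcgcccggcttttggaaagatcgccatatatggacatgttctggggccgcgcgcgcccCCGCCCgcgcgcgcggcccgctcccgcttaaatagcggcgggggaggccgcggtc
Nr1d1, which encodes the clock repressor REV-ERB alpha, had control peaks on both sides of its start, the nearer reaching to 254 bp before it. The bases between are chr11:98775378-98775627, minus strand, with 7 CpG and no match to the 5 motifs:
Nr1d1: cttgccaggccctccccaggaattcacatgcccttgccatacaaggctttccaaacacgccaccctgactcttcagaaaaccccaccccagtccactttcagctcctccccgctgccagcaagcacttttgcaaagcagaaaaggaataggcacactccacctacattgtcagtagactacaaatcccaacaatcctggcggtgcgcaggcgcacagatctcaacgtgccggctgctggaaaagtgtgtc
These sequences describe the letters near the peaks and say nothing about which factor is bound there.

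The 2 lists had 1 peak position in common. The Utx-deleted peaks covered 16094 bp in all and the control peaks 685569 bp. Of the Utx-deleted peaks 47 of 48 overlapped no control peak, and of the control peaks 2139 of 2140 overlapped no Utx-deleted peak. The shared position lay on chromosome 17, 367709 bp outside Arid1b, which encodes a subunit of the BAF chromatin remodelling complex. There the Utx-deleted peak spanned 299 bp (4626289 to 4626587) and lay wholly within a control peak of 453 bp (4626182 to 4626634), of which it covered 66.0%. The annotation has the long non-coding RNA Gm34259 at that position. A second control peak assigned to Arid1b lay nearer to the gene, at 47333 bp, and was 320151 bp away from the Utx-deleted peak.

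Few control peaks lay near a Utx-deleted peak, but 48 peaks leave most of the genome far from any of them. The share that random placement would give was not computed, so these distances do not measure a separation of the lists. The median distance from a Utx-deleted peak to the nearest control peak was 714852.5 bp. From a control peak to the nearest Utx-deleted peak it was 22466286 bp, with 835 control peaks on chromosomes that had no Utx-deleted peak. Within 100 kb of the other list lay 5 of the 48 Utx-deleted peaks and 3 of the 2140 control peaks. Besides the Arid1b position these were a Utx-deleted peak 15318 bp from a control peak near Pdia4, and 3 Utx-deleted peaks 65098 to 66088 bp from a control peak assigned to Zc3h11a. The next pairs were 101753 bp apart, at Gm40363 and Pdia4, 114653 bp apart, at Vps45 and Otud7b, and 195251 bp apart, at 9230019H11Rik and H60c.

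Each peak was assigned to the protein-coding gene it lies in, or otherwise to the nearest one at any distance. The Utx-deleted peaks were assigned to 27 of 21883 genes (0.123%) and the control peaks to 1305 (5.96%). Both lists named Arid1b and Pdia4, which encodes a protein disulfide isomerase of the endoplasmic reticulum, so that 25 genes had Utx-deleted peaks only and 1303 had control peaks only. The peaks of Pdia4 differed in place: the Utx-deleted one lay 23177 bp outside the gene (47772719 to 47772963 on chromosome 6) and the control one 7499 bp outside it (47788281 to 47788641). At least 2 peaks were assigned to 11 of the 27 Utx-deleted genes and to 401 of the 1305 control genes. The most for 1 gene were 6 Utx-deleted peaks, at Zfp982, and 19 control peaks, at Gata3, of which the farthest lay 503887 bp outside the gene. With genes counted only within 10 kb of a peak, the Utx-deleted list named 17 genes and the control list 1181, and 0 genes were in both.

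The Utx-deleted peaks lay mostly away from start sites, whereas 33.9% of the control peaks lay near one. The start sites were those of 17491 of the 21883 protein-coding genes. Those of chromosome 18 were not used here, which with 1 unplaced peak leaves out 56 control peaks. Other genes without one in the set include Gm42346 and Zfp990 on chromosome 4, whose peaks were measured to another gene's start. The midpoint of 1 of 48 Utx-deleted peaks (2.08%, 0.369 to 10.9) and of 706 of 2084 control peaks (33.9%, 31.9 to 35.9) lay within 1 kb of a start site. Ranges in brackets are 95% intervals by the method of Wilson, which take in counting error alone. For a count of 0, the share said to be allowed is instead 3 divided by the number of members. Within 250 bp lay 0 of 48 Utx-deleted peaks, a count that allows a share of up to 6.25%, and 161 control peaks (7.73%). More than 100 kb from any start site in the set lay 13 Utx-deleted peaks (27.1%, 16.6 to 41.0) and 186 control peaks (8.93%, 7.78 to 10.2). The 13 include the 4 peaks inside Gm42346, which spans 145412232 to 145451249, so that its own start was nearer. The median distance to a start site in the set was 31931.5 bp for Utx-deleted peaks and 5145.5 bp for control peaks. Starts missing from the set can only lengthen these distances.

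**Figure D1:**
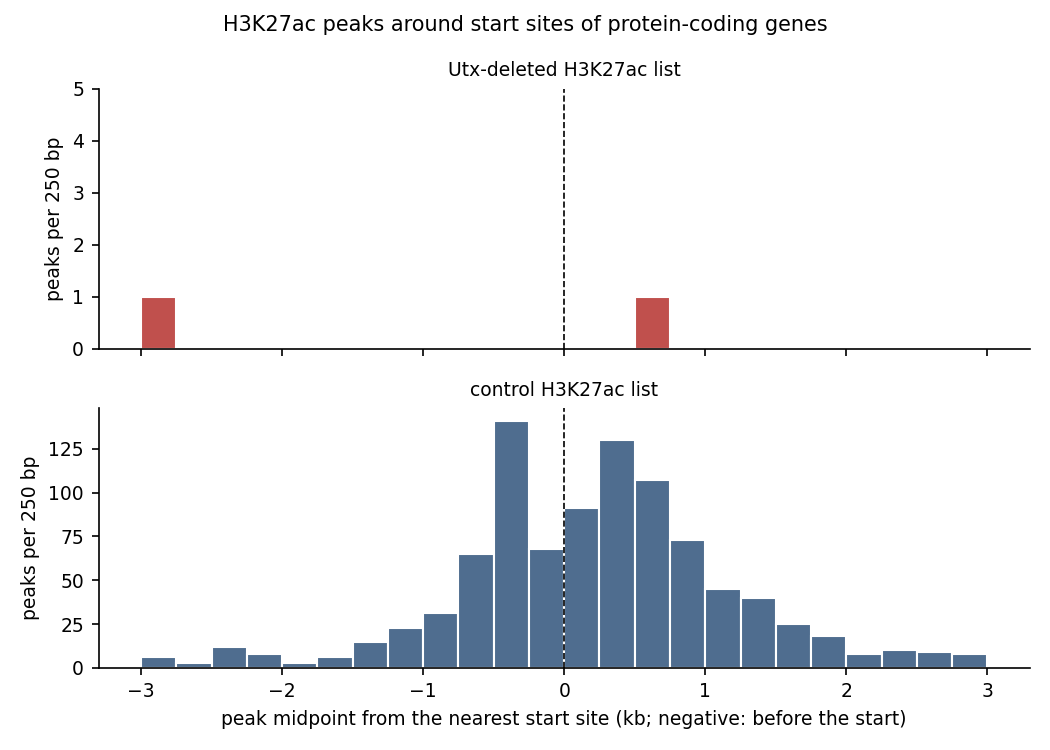
Number of H3K27ac peak midpoints per 250 bp (vertical axis) by position relative to the nearest protein-coding start site in kb (horizontal axis, negative before the start), for the Utx-deleted list above and the control list below, on separate vertical scales. The Utx-deleted panel holds 2 peaks, and the control panel has 141 peaks in the 250 bp bin that begins 500 bp before the start and 130 in the bin that begins 250 bp after it, with 68 and 91 in the bins next to the start.

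Control peaks stood on either side of start sites more than on them. In bins of 250 bp, 141 control peaks were centred 500 to 250 bp before a start and 68 in the last 250 bp before it. After the start the counts were 91, 130 and 107 in the 3 bins that follow it. Of the 706 control peaks within 1 kb, 305 (43.2%, 39.6 to 46.9) lay before the start. At 40 of 641 start sites (6.24%) separate control peaks lay on both sides within 1 kb. Dsp, which encodes desmoplakin, had peaks centred 386 bp before and 768 bp after its start. Per1, a clock repressor that is also induced by stress, had them 461 bp before and 349 bp after it. Rela, the p65 subunit of NF-kB, had them 552 bp before and 693 bp after it, and Atf4, a stress transcription factor, 455 bp before and 155 bp after it. Nr1d1 had them 653 bp before and 748 bp after the start, and the promoter printed above lies between them. No Utx-deleted peak lay within 1 kb before a start, and the one within 1 kb after a start, at Gm32584, had no partner.

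The promoters beside control peaks were rich in CpG. The 641 promoters with a control peak centred within 1 kb held a median of 21 CpG in their 300 bases (quartiles 13 and 28), and all 21262 promoters a median of 13 (4 and 24). A GC box stood in 63.3% of the 641 (59.5 to 67.0) and in 46.2% of all, and the cyclic AMP element in 4.84% (3.43 to 6.78) and in 2.23%. The AP-1 motif stood in 7.02% of the 641 (5.29 to 9.26) and in 6.99% of all. CCAAT stood in 35.1% (31.5 to 38.9) and in 38.2%, and TATAAA in 8.27% (6.38 to 10.7) and in 12.6%. All motifs were read on both strands, and the GC box and the cyclic AMP element contain a CpG themselves, so that their shares follow the CpG number in part. The set of 641 is part of all promoters, and genes are not independent. Skint1 and Gm32584, at 0 CpG in the bases shown, stood below the lower quartile of both sets.

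Relative to whole genes, the Utx-deleted list had a smaller share of peaks at gene ends and a larger share between genes than the control list. Near gene ends, meaning at most 1 kb from the start or end of a coding gene, lay 6 of 48 Utx-deleted peaks (12.5%, 5.86 to 24.7) and 703 of 2139 placed control peaks (32.9%, 30.9 to 34.9). Inside genes, farther from their ends, lay 19 Utx-deleted peaks (39.6%, 27 to 53.7) and 873 control peaks (40.8%, 38.7 to 42.9). Between genes lay 23 Utx-deleted peaks (47.9%, 34.5 to 61.7) and 563 control peaks (26.3%, 24.5 to 28.2). Of gene-end peaks, 1 of 6 Utx-deleted and 556 of 689 control ones (80.7%) had a start site of the set within 1 kb. The other 5 Utx-deleted ones had none of the set so near. At Zfp990 and Zfp984 the nearest start site in the set was another gene's. Whether the gene-end peaks of Zfp990 and Zfp984 lay at a start is therefore not known. The 6 were assigned to Gm32584, with 2, and to Zfp990, Zfp985, Zfp534 and Zfp984, with 1 each. More than 100 kb from any protein-coding gene lay 7 Utx-deleted peaks (14.6%, 7.25 to 27.2) and 45 control peaks (2.10%, 1.58 to 2.80). Without the chromosome 4 region described next, a choice made after the data were seen, 7.14% of the 28 other Utx-deleted peaks lay at gene ends, 21.4% inside genes and 71.4% between them. Of peaks wider than 274 bp, the median of both lists, 24.0% of the Utx-deleted and 31.3% of the control peaks lay at gene ends. With peaks merged within 10 kb these shares were 18.2% for Utx-deleted and 38.3% for control.

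A large share of the Utx-deleted peaks lay on 1 chromosome. Chromosome 4 held 21 of the 48 (43.8%, 30.7 to 57.7) and 146 of the 2140 control peaks (6.82%, 5.83 to 7.97). Of the 21 Utx-deleted peaks 20 lay between positions 145428578 and 147755072, a stretch with 0 control peaks and 18 coding genes, 15 of them with a Zfp number as their name. The nearest control peak was 384814 bp beyond that stretch. Zfp genes encode zinc finger proteins, many of them repressors with a KRAB domain. Genes of such a cluster are close copies, and which of them a peak belongs to is uncertain. By genes, 7 of the 27 Utx-deleted genes and 15 of the 1305 control genes were among the 397 genes named Zfp and a number. That is 1.76% of the family (0.857 to 3.59) for Utx-deleted and 3.78% (2.30 to 6.14) for control peaks, beside 0.123% and 5.96% of all genes. All 7 Utx-deleted ones had their peaks in that 1 stretch, and the family was chosen with these peaks known. The Utx-deleted share therefore describes 1 locus and not the family, and its interval, which takes genes as independent, is too narrow.

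Within that stretch the peaks stood in groups. Zfp982 had 5 peaks in 5029 bp of its body (147507599 to 147512627), 212, 327, 328, 491 and 423 bp wide in order of position, and a single one of 206 bp 48588 bp before the first. Gm42346 had 4 peaks of 199 to 267 bp inside the gene. Rex2 had 2 inside it, 211 and 238 bp wide, Zfp978 had 1 of 274 bp inside it, and Zfp990 had 1 of 467 bp at its end and 1 of 199 bp outside. Zfp987 had 2 peaks 41566 and 40708 bp outside it, and Zfp985, Zfp534 and Zfp984 each had 1 at a gene end, 503, 301 and 308 bp wide. The median width of the 20 peaks was 259 bp.

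**Figure D2:**
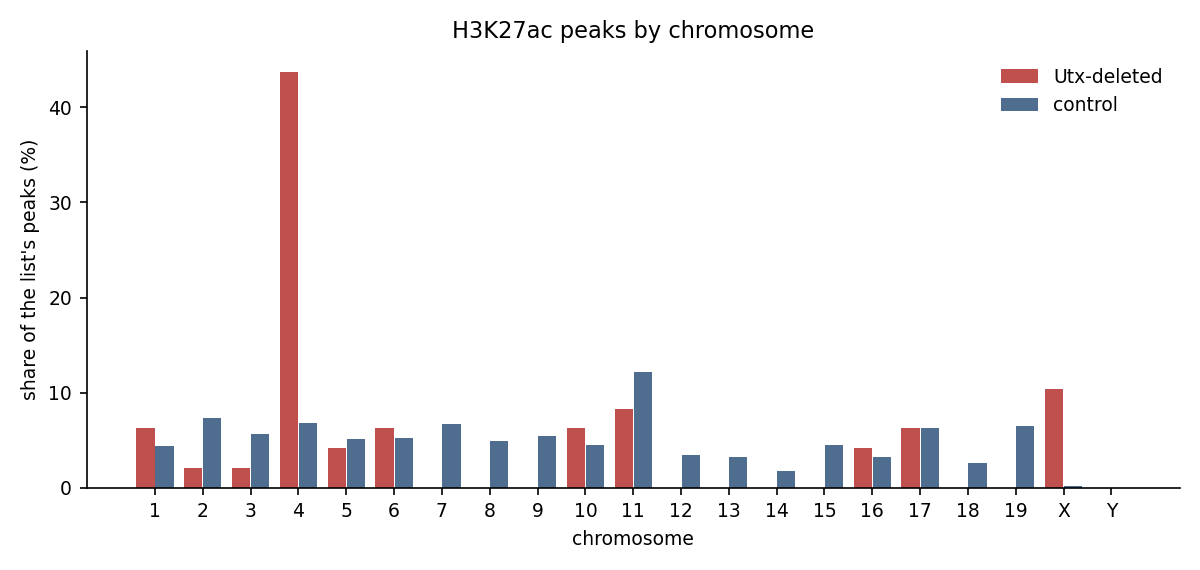
Share of the H3K27ac peaks of each list in percent (vertical axis) on each chromosome (horizontal axis), with the Utx-deleted list of 48 peaks left of the control list of 2140 peaks. Chromosome 4 holds 43.8% of the Utx-deleted and 6.82% of the control peaks, and chromosome X 10.4% of the Utx-deleted and 0.234% of the control peaks.

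Chromosome X held as many Utx-deleted as control peaks. The 5 Utx-deleted peaks (10.4%, 4.53 to 22.2) were 4 that lay 35181 to 118970 bp outside 4932411N23Rik, in 2 pairs, and 1 of 677 bp inside Cldn34d, a member of the claudin family. None of them had a start site within 1 kb. The 5 control peaks (0.234%, 0.0998 to 0.546) lay at the ends of 4 genes. Ddx3x, an RNA helicase, had its peak 350 bp before the start, Hcfc1, a transcriptional coregulator, 396 bp before it, and Kdm5c, a histone H3K4 demethylase, 41 bp after it. Mid1, a ubiquitin ligase gene, had 2 peaks within 323 bp of its end, far from its start. Chromosome 11 held 4 Utx-deleted peaks (8.33%) and 261 control peaks (12.2%). Chromosome 19 held 0 Utx-deleted peaks, which allows up to 6.25%, and 138 control peaks (6.45%). In all 11 chromosomes had Utx-deleted peaks and 20 had control peaks. In the first 5 Mb of a chromosome lay 7 Utx-deleted peaks (14.6%, 7.25 to 27.2) and 32 control peaks (1.5%, 1.06 to 2.10), a distance chosen after the values were seen.

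The other Utx-deleted peaks, outside chromosomes 4 and X, were spread over genes of many functions. The widest lay inside Dock2, a Rac activator of white blood cells, with 831 and 695 bp at 101849 and 239245 bp after its start. Gm40363 had 1 of 616 bp inside it and Vps45, a vesicle fusion gene, 1 of 529 bp inside it. Vmn2r114, a vomeronasal receptor gene, had 1 of 256 bp inside it. Snrpe, a spliceosome protein gene, had 3 peaks in 1247 bp, 347, 217 and 257 bp wide, the nearest 7799 bp outside the gene, and 9230019H11Rik had 3 in 3936 bp, the nearest 2697 bp outside. Near signalling genes, the Utx-deleted peak of Axin2, a feedback inhibitor of Wnt signalling, lay 60977 bp outside it and that of the potassium channel gene Kcnd2 14564 bp outside. The peak of Cd300ld, a receptor gene of myeloid cells, lay 8767 bp outside and that of Frmd4a 52912 bp outside. The assignment was loose at Olfr161, an olfactory receptor gene with 2 peaks 338465 and 344413 bp away, at Esp38, a secreted peptide gene, 106570 bp away, and, on chromosome 4 outside the Zfp stretch, at the ephrin receptor gene Epha7, 635909 bp away. Of all 48 Utx-deleted peaks, 24 lay in a protein-coding gene, 3 in a long non-coding RNA and 21 in no annotated gene.

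Peaks of the lists were of like width. The median was 296 bp in the Utx-deleted list (quartiles 237.5 and 382, range 199 to 831) and 273 bp in the control list (225 and 369, range 199 to 1798). The narrowest peak was 199 bp in each, and 4 Utx-deleted peaks (8.33%, 3.29 to 19.6) and 175 control peaks (8.18%, 7.09 to 9.41) had exactly that width. Peaks of 500 bp or more were 6 of the Utx-deleted (12.5%, 5.86 to 24.7) and 195 of the control peaks (9.11%, 7.97 to 10.4). Peaks over 1000 bp numbered 0 of 48 in the Utx-deleted list, which allows up to 6.25%, and 8 of 2140 in the control list (0.374%, 0.190 to 0.736), led by Clec2g with 1798 bp and Skint1 with 1292 bp, both inside the genes. By place, Utx-deleted peaks at gene ends had a median of 412 bp, inside genes 274 bp and between genes 261 bp, and control peaks 269, 271 and 285 bp. In the Utx-deleted list the 24 peaks that had a neighbour within 10 kb had a median of 259 bp and the 24 without one 329.5 bp. In the control list these medians were 287 bp and 265 bp, so that the order was the opposite.

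**Figure D3:**
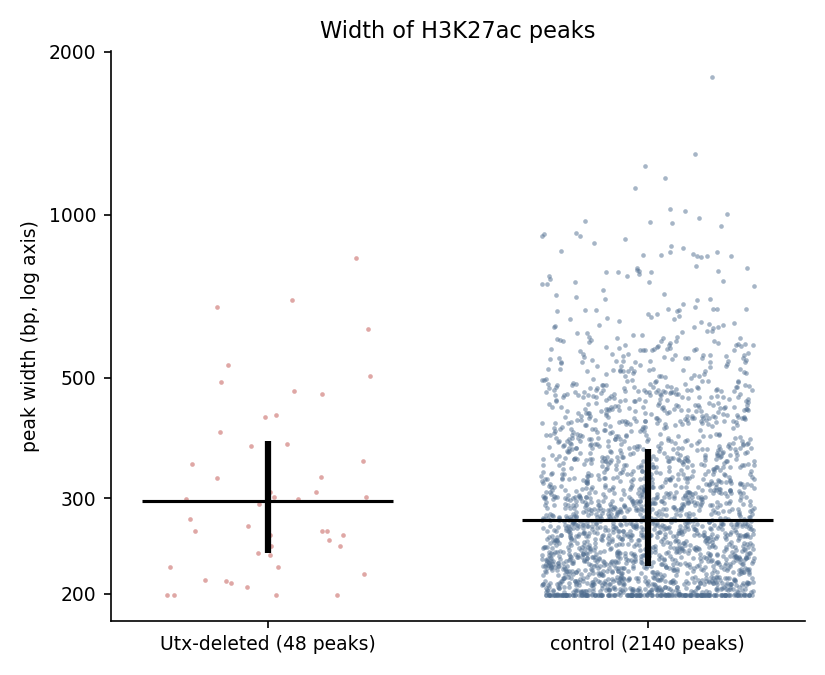
Width of each H3K27ac peak in bp (vertical axis, log scale), with 1 point per peak, for the Utx-deleted list on the left and the control list on the right. The thin horizontal line is the median, 296 bp for Utx-deleted and 273 bp for control peaks, and the thick vertical bar spans the quartiles, which overlap.

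The share of peaks with a neighbour was close between the lists over all peaks, but not over the wider ones. Another peak of the same list lay within 10 kb of 24 of 48 Utx-deleted peaks (50%, 36.4 to 63.6) and of 1092 of 2140 control peaks (51.0%, 48.9 to 53.1). Among peaks wider than 274 bp, the median of both lists, it was 24.0% of 25 Utx-deleted and 41.4% of 1068 control peaks. The median gap to the next peak on the chromosome was 48588 bp over 37 Utx-deleted gaps and 75971 bp over 2119 control gaps. Gaps under 500 bp were 7 of the 37 Utx-deleted gaps (18.9%, 9.48 to 34.2) and 261 of the control gaps (12.3%, 11 to 13.8). Gaps of 100 kb to 1 Mb were 4 of the Utx-deleted gaps (10.8%, 4.29 to 24.7) and 575 of the control gaps (27.1%, 25.3 to 29.1). Without the chromosome 4 stretch 42.9% of the Utx-deleted peaks had a neighbour within 10 kb, and the median of the 17 Utx-deleted gaps left was 76307 bp, close to the control median. Neighbours differed in where they stood, since 0 of the 24 Utx-deleted peaks with a neighbour (up to 12.5% allowed) and 262 of 1056 such control peaks (24.8%, 22.3 to 27.5) had a start site within 1 kb. Of the peaks alone it was 1 of 24 Utx-deleted ones and 444 of 1028 control ones (43.2%, 40.2 to 46.2).

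**Figure D4:**
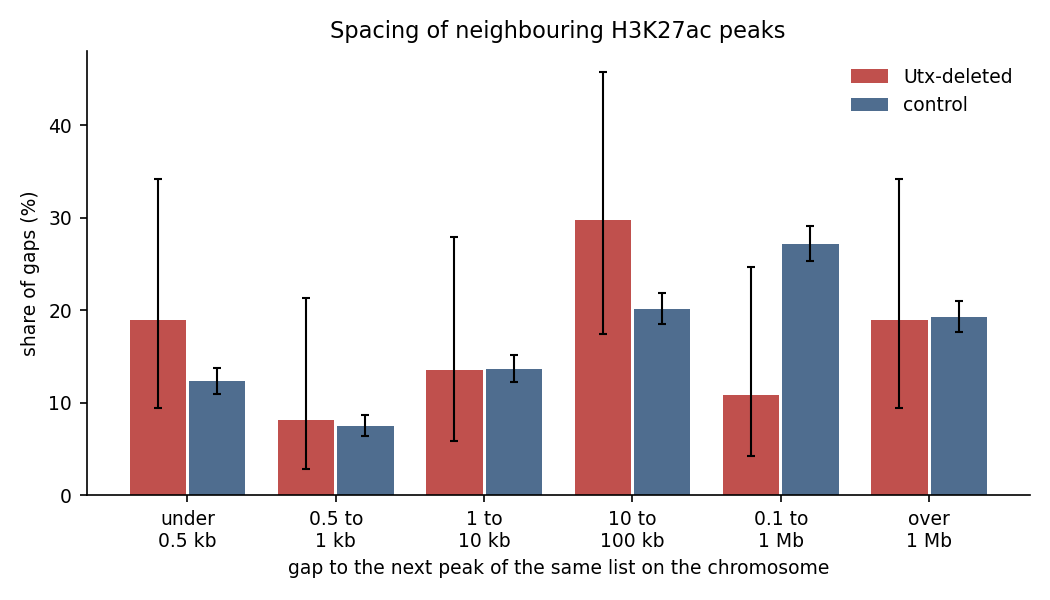
Share of gaps between neighbouring H3K27ac peaks of the same list in percent (vertical axis) by gap size (horizontal axis), with the Utx-deleted list left of the control list and 95% Wilson intervals as bars. Gaps under 0.5 kb make up 18.9% of 37 Utx-deleted and 12.3% of 2119 control gaps, and gaps of 0.1 to 1 Mb make up 10.8% of the Utx-deleted and 27.1% of the control gaps.

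Joined over gaps of up to 10 kb, the Utx-deleted peaks formed 33 clusters, of which 24 were single peaks, and the control peaks 1431, of which 1048 were single. The largest Utx-deleted cluster was that of Zfp982 with 5 peaks. Of the control clusters 43 held 5 or more, and these contained 272 peaks (12.7%) over a median span of 12627 bp. Krt78, a type II keratin gene of differentiated keratinocytes, had a control cluster of 14 peaks over 13934 bp (101966340 to 101980273 on chromosome 15), 36.5% of it covered by peaks. Cdh1, which encodes E-cadherin, had one of 13 peaks over 20277 bp (106603862 to 106624138 on chromosome 8). Jup, which encodes plakoglobin, and its neighbour P3h4 shared one of 10 peaks over 24823 bp. Clusters of 8 peaks lay at Dsp, at Cd9, a tetraspanin gene, and at Sgms1, which encodes a sphingomyelin synthase. Others of 8 lay at Mrpl45, and at Sfn, a 14-3-3 protein gene of keratinocytes, with Zdhhc18. The control clusters of Krt78, Cdh1, Jup and Sgms1 held 0 peaks within 1 kb of a start site in the set. Those of Cd9 and Mrpl45 held 1 each, that of Dsp 2 and that of Sfn and Zdhhc18 3. The first peak of the Cdh1 cluster lay within 1 kb of the gene end at 106603350, where the set has no start site. The nearest Utx-deleted peak to any of the 43 was 114653 bp away, and 0 of the 43 had one within 100 kb. What random placement would give was not computed.

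The lists of genes by function were then set against the share of all genes with a peak, which was 0.123% for Utx-deleted and 5.96% for control peaks. Over the 469 annotated genes of 17 lists, 1 (0.213%, 0.0376 to 1.20) had a Utx-deleted peak, Arid1b, and 121 (25.8%) had a control peak. These lists were drawn up with the control peaks known and are not independent evidence. A list of 20 genes at the Utx-deleted share would rarely hold a member, so that a count of 0 in the Utx-deleted list says little about any one list.

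**Figure D5:**
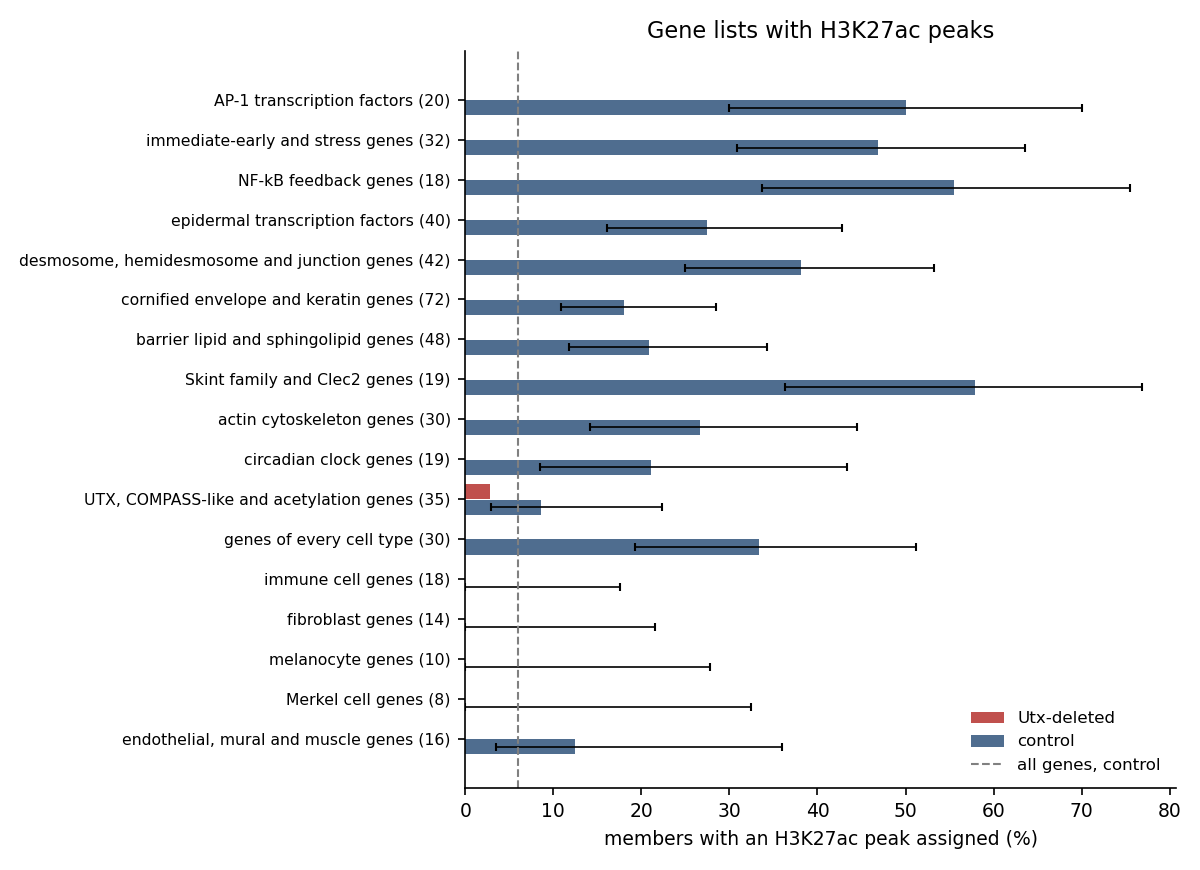
Share of the members of each gene list with an assigned H3K27ac peak in percent (horizontal axis), with the Utx-deleted bar above the control bar, 95% Wilson intervals on the control bars, and the number of annotated members in brackets. One list has a Utx-deleted bar, for Arid1b, while control shares run to 57.9% against 5.96% over all genes, drawn as a dashed line.

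Control peaks were assigned to many stress and signalling genes. Of 20 AP-1 transcription factors, 0 had a Utx-deleted peak and 10 (50%, 29.9 to 70.1) a control peak. Fos had a control peak of 307 bp centred 149 bp before its start and Jun one of 386 bp 803 bp before it. Of 32 immediate-early and stress genes, 0 had a Utx-deleted peak and 15 (46.9%, 30.9 to 63.6) a control peak. Klf6, a zinc finger transcription factor, had 7, Zfp36, which destabilises cytokine mRNAs, had 6 in 5124 bp, and Dusp1, a MAP kinase phosphatase gene, had 5. Of 18 NF-kB feedback genes, 0 had a Utx-deleted peak and 10 (55.6%, 33.7 to 75.4) a control peak. Tnfaip3, which encodes the ubiquitin-editing inhibitor A20, had 12 control peaks, 7 of them in a cluster of 6114 bp outside the gene and 2 within 1 kb of its start. Of 19 circadian clock genes, 0 had a Utx-deleted peak and 4 (21.1%, 8.51 to 43.3) a control peak, with 6 at Nr1d1, 5 at Per1 and 1 each at Cry1 and Cry2. The genes used in every cell type, at 33.3% (19.2 to 51.2) for control peaks, stood above the clock list and within the intervals of the AP-1 and immediate-early lists.

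Some regulators and adhesion genes of the epidermis had many control peaks. Among those listed, 29 of 40 transcription factors and 26 of 42 desmosome, hemidesmosome and junction genes had none. Of the genes used in every cell type 33.3% (19.2 to 51.2) had a control peak. Of 40 epidermal transcription factors, 0 had a Utx-deleted peak and 11 (27.5%, 16.1 to 42.8) a control peak, and 5 of the 43 control peaks (11.6%, 5.07 to 24.5) lay within 1 kb of a start, beside 33.9% of all control peaks. Without the 19 peaks of Gata3 it was 5 of 24 (20.8%, 9.24 to 40.5). Gata3, a regulator of epidermal differentiation, had 19 control peaks and 0 of them within 1 kb of the start. A cluster of 7 lay inside the gene and up to 1028 bp outside it. The other Gata3 peaks lay 52681 to 503887 bp outside it and were assigned only as to the nearest gene. Grhl3, a regulator of barrier formation, had 6, of which 2 lay 349 and 829 bp after its start. Tfap2a, a keratinocyte regulator, had 5, and Klf4, another barrier regulator, had 1 of 842 bp centred 1137 bp before its start and 1 of 351 bp that lay 590331 bp away. Of 42 desmosome, hemidesmosome and junction genes, 0 had a Utx-deleted peak and 16 (38.1%, 25 to 53.2) a control peak, with 9 of the 69 peaks that have a known start site within 1 kb of it (13.0%, 7.02 to 23.0). Cdh1 had 14 control peaks, Dsp 11, Cd9 10, Jup 7 and Perp, a desmosome-associated p53 target, 6. Cldn1, a tight junction claudin gene, had 4.

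Barrier genes and the Skint family followed. Of 72 cornified envelope and keratin genes, 0 had a Utx-deleted peak and 13 (18.1%, 10.9 to 28.5) a control peak, with Krt78 at 14 control peaks and Krt80 at 6, all 6 at least 11914 bp outside Krt80. Krt10, a keratin of suprabasal cells, had 3, one of them 55 bp outside a gene end. Sprr2a1, Sprr2a2 and Sprr2a3, small proline-rich genes that lie side by side, had 2, 1 and 2, all centred 3779 to 7057 bp before a start. These genes are close copies, and reads may not tell them apart. Of 48 barrier lipid and sphingolipid genes, 0 had a Utx-deleted peak and 10 (20.8%, 11.7 to 34.3) a control peak, with 11 at Sgms1, 5 at Abca12, a lipid transporter gene of lamellar granules, and 3 at Scd1, a fatty acid desaturase gene. Of 19 Skint and Clec2 genes, 0 had a Utx-deleted peak and 11 (57.9%, 36.3 to 76.9) a control peak. Skint4 had 6 control peaks, Skint7 and Skint11 had 4 each, and Clec2g had 8. Control peaks within 1 kb of a start were present at Skint1, Skint2, Skint3, Skint4, Skint7, Skint8 and Skint11. These families are tandem copies, so neighbours are not independent.

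Of 30 actin cytoskeleton genes, 0 had a Utx-deleted peak and 8 (26.7%, 14.2 to 44.4) a control peak, with 6 at Actn4, 3 at Tpm1 and 1 of 967 bp at Actg1. Of 30 genes used in every cell type, 0 had a Utx-deleted peak and 10 (33.3%, 19.2 to 51.2) a control peak. A list of 35 genes of UTX, its complexes and histone acetylation also held Arid1b, a gene of the BAF remodelling complex. Of the 35, 1 had a Utx-deleted peak, Arid1b, with the peak 367709 bp from the gene. A control peak was assigned to 3 (8.57%, 2.96 to 22.4). Kdm6b, the related demethylase gene, had 4 control peaks, Arid1b 2 and Rbbp5, a COMPASS core subunit gene, 1. That last list was near the control share of all genes.

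Of 12 keratinocyte markers, 0 had a Utx-deleted peak and 5 had a control peak, beside a control share of 5.96% over all genes. The 5 were Krt10, Dsp, Jup, Col17a1 and Grhl3. The other 7, Krt5, Krt14, Krt15, Krt1, Trp63, Itga6 and Itgb4, had an assigned peak in neither list. At a share of 0.123% over all genes, the 0 in the Utx-deleted list gives no information on these markers. Of 18 immune, 14 fibroblast, 10 melanocyte and 8 Merkel cell genes, 0 had a Utx-deleted peak and 0 a control peak, which allows shares of up to 16.7%, 21.4%, 30.0% and 37.5%. Genes of immune cells outside these 18, picked after their peaks were seen, did have peaks. Among them are Dock2, with 2 Utx-deleted peaks inside it, and Cd300ld, with 1 Utx-deleted peak outside it. The lymphocyte activation gene Cd69 was the nearest gene to 6 control peaks, at least 29786 bp away. A pair of control peaks 13627 bp from those 6 was assigned to Clec2d. The interleukin receptor gene Il23r had 5 control peaks inside it over 3132 bp. Of 16 genes of endothelium, mural cells and muscle, 0 had a Utx-deleted peak and 2 a control peak, Pecam1 with 6 and Vwf with 1. Pecam1 encodes an adhesion protein of endothelium and blood cells, and Vwf the von Willebrand factor. The part of other cell types in either list was not tested.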

How the data were processed

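Per the labels' protocols, epidermal cell suspensions were crosslinked with formaldehyde and precipitated with an H3K27ac antibody (Abcam ab4729). Per the submitters' processing notes the tools were FastQC, Bowtie2, bedtools, MACS2 and deepTools, with no version given. Per the file headers, the authors called peaks with MACS2 on merged samples. The deposited lists give a chromosome, start and end per peak, and no score or q-value, so read depth is unknown. The notes name mm10 (GRCm38) and mm39 (GRCm39), and gene ends coincided with peaks on GRCm38, which was used with RefSeq genes and start sites. One control peak on unplaced sequence has no location.

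Peak widths, gaps, overlaps of at least 1 bp, nearest genes and distances were computed with pandas 2.3.3 and numpy 2.4.6 in Python 3.11.15, intervals with scipy 1.17.1 and figures with matplotlib 3.10.9, and the procedures were tested on simulated data. Without replicates no test was run. The gene lists, the named genes and all other choices were made with earlier results of these data known. Of 476 gene names in the lists, 5 were not in the annotation. Named genes were those with a Utx-deleted peak, those with most or widest control peaks overall and per list, and those nearest to the other list. Other genes, such as those with control peaks on both sides of a start or on chromosome X, were chosen after their values were seen.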

Additional observations from a re-analysis of the deposited data

How the results depend on the processing

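Of 78 alternative values over the main results 53 stayed near the reported value and 25 did not. Near means within its 95% interval or, for counts, within 1.5 times of it. Some of the 53 could not move. Leaving out the chromosome 4 region, which held 0 control peaks, could not change a control value. Nor could it change the overlap, since the shared position lay on chromosome 17. The intervals of the Utx-deleted list are wide, and some of its values among the 53 moved by over 1.5 times. Its share at gene ends went to 24.0% with wider peaks only and to 7.14% without the chromosome 4 region. Its median distance to a control peak went to 1264772 bp with wider peaks only. Its median gap went from 48588 to 76307 bp without the chromosome 4 region. Of 51 further values, for members of the 17 gene lists with a control peak, 48 stayed within 1.5 times. The immune, fibroblast, melanocyte and Merkel cell lists had 0 such members, which settings that only remove peaks could not change. The cause of the moves was not tested except where the setting makes them by construction. The overlap of the lists stayed at 1 peak when 50% of both peaks, 1 kb or 10 kb was asked for, and with wider peaks only. Wider peaks, above 274 bp, the median of both lists, came to 25 Utx-deleted and 1068 control peaks by construction. They were assigned to 735 control genes, with 1 gene in both lists. Of them 24.0% of the Utx-deleted and 41.4% of the control peaks had a neighbour within 10 kb, and 28.8% of the control peaks lay between genes. Counting only genes within 10 kb left 17 genes with Utx-deleted peaks and 0 in both lists. Merging within 1 kb gave median widths of 363 bp for Utx-deleted and 291 bp for control peaks, wider by construction. At a gene-end distance of 500 bp the share at gene ends was 4.17% of Utx-deleted and 20.1% of control peaks, with 49.8% of control peaks inside genes and 30.1% between them. At 3 kb the control shares were 49.4%, 28% and 22.6% for gene ends, inside and between. With peaks merged within 10 kb, 18.2% of the Utx-deleted and 38.3% of the control peaks lay at gene ends, and 22.9% of the control peaks between genes. Neighbours within 5 kb and 20 kb were found for 45.8% and 57.3% of control peaks. Without the chromosome 4 region, a choice made after the data were seen, 28 Utx-deleted peaks remained, 21.4% inside genes and 71.4% between them. With wider peaks only, 8 immediate-early and stress genes, 7 epidermal transcription factors and 7 cornified envelope and keratin genes had a control peak.

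No paired analysis was possible because the libraries of a genotype are merged in 1 list, for which reason single libraries could not be left out either. A stricter q-value could not be applied, as the lists carry none. The depth of the libraries is unknown, and a region absent from a list was not called at that depth. With 48 Utx-deleted peaks, shares in that list have intervals over 10 percentage points wide.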
